A study of Mus musculus with 15 samples.

Results

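Keratin genes were taken as all genes with a probe set annotated to exactly 1 symbol that starts with Krt followed by a digit, without the keratin-associated proteins. This gave 53 genes among the 22180 genes measured by such probe sets. Krt18 alone had more than 1 probe set, and the one with the highest mean stood for it. Krt5 is missing from the set, because its probe set is shared with Krt6a. Krt74, which RefSeq lists as a transcribed pseudogene in the mouse, was kept. RNA came from kidneys of mice about 6 months old, 7 of them wild type (Grhl1+/+, replicates 1 to 7) and 8 without Grhl1 (Grhl1-/-, replicates 8 to 15), each measured on its own 1-colour array. The sources used here do not give strain, sex or the deleted part of the gene. The values are log2 summaries per probe set, and differences are knockout minus wild type.

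Keratins are the intermediate filament proteins of epithelia, and each filament is built from pairs of 1 acidic type I and 1 basic type II keratin. Simple epithelia such as collecting duct use Krt8 and Krt18 with Krt7 and Krt19, while basal cells of stratified epithelia use Krt5 with Krt14 or Krt15, and differentiating epidermis, root sheath and hair shaft each have their own pairs. Grhl1 encodes a grainyhead-like transcription factor known for its part in epidermal differentiation and hair anchorage. The comparison asks which keratins kidney RNA contains and whether any of them differs when Grhl1 is lost.

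Of the 53 keratins, 27 are type I, 25 are type II and 1, Krt222, was left without a type. All 25 type II genes lie on mouse chromosome 15, with the type I gene Krt18 among them, and the other type I genes and Krt222 lie on chromosome 11. RefSeq promoter windows of GRCm38.p6, from 250 bases before to 50 after a gene's start, were found for 35 of the 53 genes (36 windows). Krt19 and Krt80 were among the genes without a window, so their promoters were not searched. The grainyhead core AACCGGTT, which reads the same on both strands, was in 0 of these 36 windows, against 0.146% of 32851 windows of all genes. The looser form AACNNGTT, which includes that core, was in 1 of the 36 (2.78%), against 4.20% of all windows. The TATA-box core TATAAA, searched on both strands, was in 19 of the 36 (52.8%), against 13.6% of all windows. A match describes letters in a window and does not show a bound site.

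The windows of Krt8, Krt18 and Krt7 are shown because these simple-epithelial genes read clearly above background in every kidney. That of Krt32 is shown because it was the keratin with the largest difference between genotypes. That of Krt76 is shown because it held the only match to AACNNGTT. Capitals mark TATAAA on either strand in the first 4 and AACNNGTT in Krt76, and no capitals mean no match in that window. The positions are chr15:102004293-102004592 on the minus strand for Krt8, chr15:102027966-102028265 on the plus strand for Krt18, chr15:101412153-101412452 on the plus strand for Krt7, chr11:100088220-100088519 on the minus strand for Krt32 and chr15:101892871-101893170 on the minus strand for Krt76.
Krt8: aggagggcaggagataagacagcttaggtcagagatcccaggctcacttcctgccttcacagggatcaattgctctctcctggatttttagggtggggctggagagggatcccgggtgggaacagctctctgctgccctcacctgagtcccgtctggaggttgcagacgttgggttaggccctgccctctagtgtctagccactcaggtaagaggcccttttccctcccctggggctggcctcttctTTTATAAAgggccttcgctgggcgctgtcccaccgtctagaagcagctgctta
Krt18: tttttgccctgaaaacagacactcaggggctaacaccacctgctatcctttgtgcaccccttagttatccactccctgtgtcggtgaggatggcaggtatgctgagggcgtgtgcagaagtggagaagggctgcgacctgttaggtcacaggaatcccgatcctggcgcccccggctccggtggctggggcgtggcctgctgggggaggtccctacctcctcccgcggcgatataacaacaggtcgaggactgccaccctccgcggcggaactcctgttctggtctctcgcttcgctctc
Krt7: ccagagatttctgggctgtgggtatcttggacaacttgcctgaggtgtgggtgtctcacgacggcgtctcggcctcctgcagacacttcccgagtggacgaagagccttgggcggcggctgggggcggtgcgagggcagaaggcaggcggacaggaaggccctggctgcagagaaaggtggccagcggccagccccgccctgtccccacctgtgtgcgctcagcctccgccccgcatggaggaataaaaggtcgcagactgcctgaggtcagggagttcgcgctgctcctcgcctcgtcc
Krt32: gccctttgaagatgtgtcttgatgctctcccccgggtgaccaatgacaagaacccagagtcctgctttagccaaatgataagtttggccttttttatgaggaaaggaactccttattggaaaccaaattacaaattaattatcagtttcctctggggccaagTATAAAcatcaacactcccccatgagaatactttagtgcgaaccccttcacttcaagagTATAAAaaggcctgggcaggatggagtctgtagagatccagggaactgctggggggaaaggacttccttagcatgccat
Krt76: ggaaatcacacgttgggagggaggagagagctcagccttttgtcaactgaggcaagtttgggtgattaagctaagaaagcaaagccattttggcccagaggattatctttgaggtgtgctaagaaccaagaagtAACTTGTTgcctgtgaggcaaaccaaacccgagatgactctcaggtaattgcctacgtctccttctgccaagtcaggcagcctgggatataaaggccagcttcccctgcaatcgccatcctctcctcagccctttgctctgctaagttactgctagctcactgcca

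Of the 53 keratins, 5 read well above background in every kidney. As a reference for genes that are silent or nearly so in kidney, 1108 olfactory receptor probe sets were used. The 99th percentile of their means was 6.12, and the lowest of the 15 kidneys exceeded it for Krt8, Krt18, Krt7, Krt80 and Krt10 (46.4% of all probe sets did so). At the 95th percentile, 5.31, another 8 keratins passed: Krt12, Krt19, Krt32, Krt33b, Krt35, Krt40, Krt42 and Krt81, making 13 of 53 against 58.2% of all probe sets. The other 40 did not stay above 5.31, and their means lay between 3.78 and 5.58. The median of the receptor means was 3.22, so not staying above 5.31 does not show that a keratin is silent. Just inside this level the lowest kidney read 5.36 for Krt35, and just outside it 5.22 for Krt79. Probe sets differ in how brightly they bind, so these readings sort keratins against a common background and do not rank one keratin's RNA against another's.

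**Figure D1:**
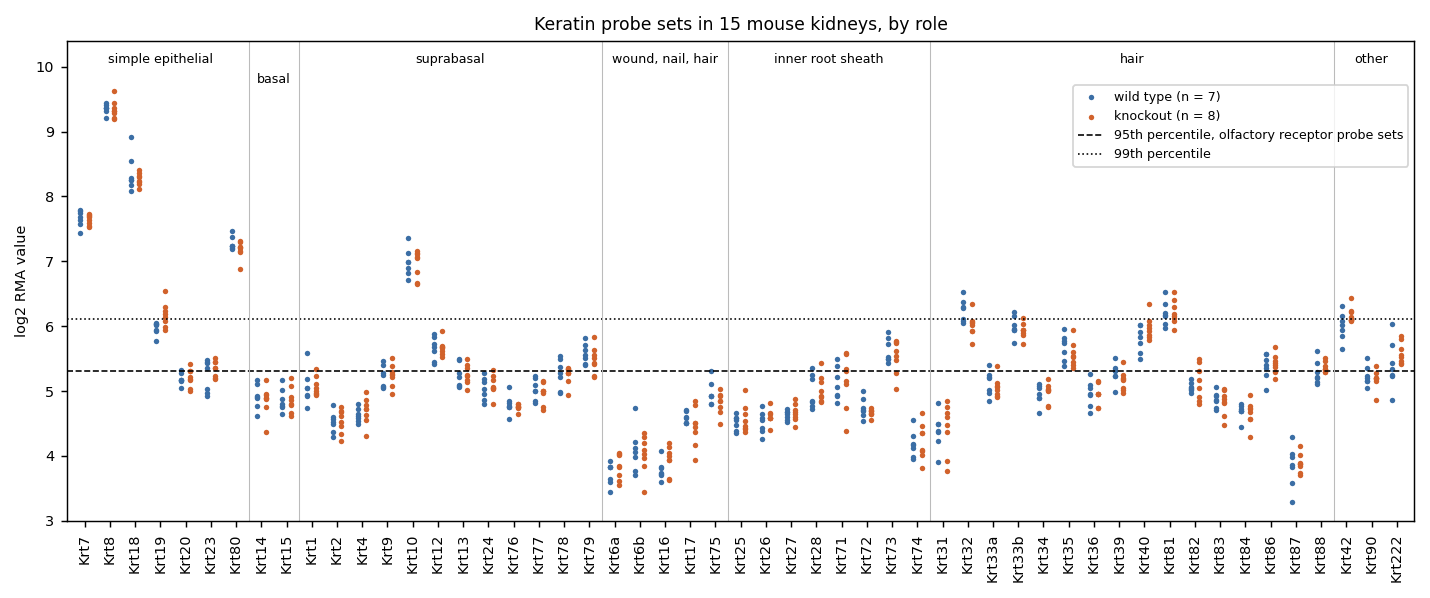
Log2 value (vertical axis) of each keratin (horizontal axis, grouped by role) in 7 wild-type (blue) and 8 knockout (orange) kidneys, 1 point per kidney. The dashed and dotted lines are the 95th and 99th percentiles of olfactory receptor probe sets, 5.31 and 6.12; Krt7, Krt8, Krt18, Krt80 and Krt10 lie above both in all 15 kidneys.

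The simple-epithelial pair Krt8 and Krt18 was present in both genotypes. Krt8, the type II partner, read from 9.21 to 9.44 in wild-type kidneys with a median of 9.37, and from 9.20 to 9.62 in knockout kidneys with a median of 9.32. The groups overlapped almost completely, and the means were 9.35 ± 0.08 (SD, n = 7) and 9.34 ± 0.14 (SD, n = 8). The difference was -0.0086 (SE 0.06, 95% interval -0.14 to 0.12), with a limma adjusted p of 0.998. Krt18, its type I partner, had 8.09, 8.26, 8.25, 8.18, 8.29, 8.55 and 8.92 across replicates 1 to 7 of the wild type. Among knockouts, replicates 8 to 15 had 8.29, 8.19, 8.11, 8.32, 8.23, 8.24, 8.41 and 8.37. Wild-type replicates 6 and 7 stood above every knockout kidney, and the other wild-type kidneys lay within or just below the knockout range. The difference was -0.09 (SE 0.10, 95% interval -0.30 to 0.12, limma adjusted p = 0.990), and 0.0026 without wild-type replicate 7.

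That kidney was also the one richest in liver transcripts. Hepatocytes carry Krt8 and Krt18 as their keratin pair, and a list of 12 liver genes averaged 11.04 in wild-type replicate 7, against 6.85 to 8.97 in the other 14 kidneys. In wild-type replicate 3 and knockout replicate 10, the other kidneys with raised liver genes (8.97 and 8.92), Krt18 was 8.25 and 8.11. Wild-type replicate 6, with Krt18 at 8.55, had a liver mean of 7.15. Krt8 in wild-type replicate 7 was 9.44, inside the knockout range. The mean of 12 urothelial genes was also highest in wild-type replicate 7, at 6.98. With the liver mean as a covariate the Krt18 difference was -0.024, and with the urothelium mean it was -0.020. What raised Krt18 in wild-type replicates 6 and 7 was not tested. Krt18 also ran higher in the 5 kidneys without Y-linked transcripts (8.24 to 8.92) than in the 10 with them (8.09 to 8.32), and the 2 ranges overlapped. Those 5 kidneys (numbers 6 and 7 of the wild type, 13, 14 and 15 of the knockout) also had the highest means of 11 collecting duct genes, 9.34 to 9.58 against 8.96 to 9.21 in the other 10. The split was not particular to collecting duct. Their means were also the highest for 5 thick ascending limb genes, 11.30 to 11.42 against 11.13 to 11.24. The same held for 4 podocyte genes, 8.46 to 8.70 against 8.07 to 8.29. For 6 proximal tubule genes their means were the lowest, 12.23 to 12.32 against 12.33 to 12.42. The part of these differences in the Krt18 values was not tested. Within these 5 kidneys the genotype difference of Krt18 was -0.39 (limma adjusted p = 0.638), and within the 10 others it was 0.016. The lower-mean Krt18 probe set read from 4.44 to 5.07 in all kidneys, below the background level, and differed by -0.13 (limma adjusted p = 0.984).

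Krt7, Krt80 and Krt10 likewise did not pass the test. Krt7, a type II keratin of ductal epithelia and urothelium, had a wild-type range of 7.43 to 7.79 (median 7.68) and a knockout range of 7.53 to 7.73 (median 7.66). The knockout range lay inside the wild-type range, with a difference of -0.018 (SE 0.06, 95% interval -0.14 to 0.10). Krt80, a type II keratin found in many epithelia, ranged from 7.19 to 7.46 in wild type (median 7.24) and from 6.88 to 7.32 in knockout (median 7.21). Knockout replicate 9 was its lowest kidney, and the difference was -0.098 (SE 0.06, 95% interval -0.23 to 0.04, limma adjusted p = 0.973), or -0.055 without that kidney. Krt10, the type I keratin of suprabasal epidermis, ranged from 6.72 to 7.36 in wild type (median 6.99) and from 6.66 to 7.17 in knockout (median 7.06). Its difference was -0.024 (SE 0.10, 95% interval -0.24 to 0.19). For these 5 keratins the intervals reached at most 0.30 log2 units below and 0.19 above 0.

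Krt19 had the largest positive difference of the family. It is a type I keratin of ducts and progenitor cells that lacks most of the usual tail domain. In wild-type replicates 1 to 7 its values were 6.03, 6.02, 6.03, 5.93, 5.78, 6.05 and 5.94. Knockout replicates 8 to 15 had 6.54, 6.08, 5.99, 6.19, 5.94, 6.24, 6.29 and 6.15. In 6 of 8 knockout kidneys it exceeded the highest wild-type kidney, and the groups overlapped through knockout replicates 10 and 12. The means were 5.97 ± 0.10 (SD, n = 7) and 6.18 ± 0.19 (SD, n = 8), a difference of 0.21 (SE 0.08, 95% interval 0.05 to 0.37) or 1.16-fold. The unadjusted limma p was 0.0152 and the adjusted p was 0.749, so Krt19 did not pass. The exact permutation p was 0.0145, and 0.668 after adjustment over all probe sets. Kidneys with Y-linked transcripts (10) gave 0.19 and the 5 lacking them 0.23. The difference was 0.16 without knockout replicate 8, its highest kidney. It grew to 0.32 in the 8 kidneys without liver or adrenal cortex transcripts (limma adjusted p = 0.991).

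Krt32 had the largest negative difference. It is a type I keratin of the hair cuticle, and its readings straddled the 99th percentile level of 6.12. Wild-type kidneys, replicates 1 to 7 in order, had 6.53, 6.28, 6.11, 6.29, 6.37, 6.06 and 6.08. Knockout kidneys, replicates 8 to 15 in order, had 5.93, 6.01, 6.08, 6.06, 6.35, 6.05, 5.93 and 5.73. In 5 of 8 knockout kidneys it was below the lowest wild-type kidney, while knockout replicate 12 lay within the wild-type range, above all but 2 wild-type kidneys. The means were 6.25 ± 0.17 (SD, n = 7) and 6.02 ± 0.17 (SD, n = 8), a difference of -0.23 (SE 0.09, 95% interval -0.41 to -0.046). The unadjusted limma p was 0.0174, the adjusted p was 0.761, and the exact permutation p was 0.0239. Kidneys with Y-linked transcripts gave -0.23 and those lacking them -0.17. The difference was -0.41 without the kidneys that held liver or adrenal cortex transcripts (limma adjusted p = 0.991).

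**Figure D2:**
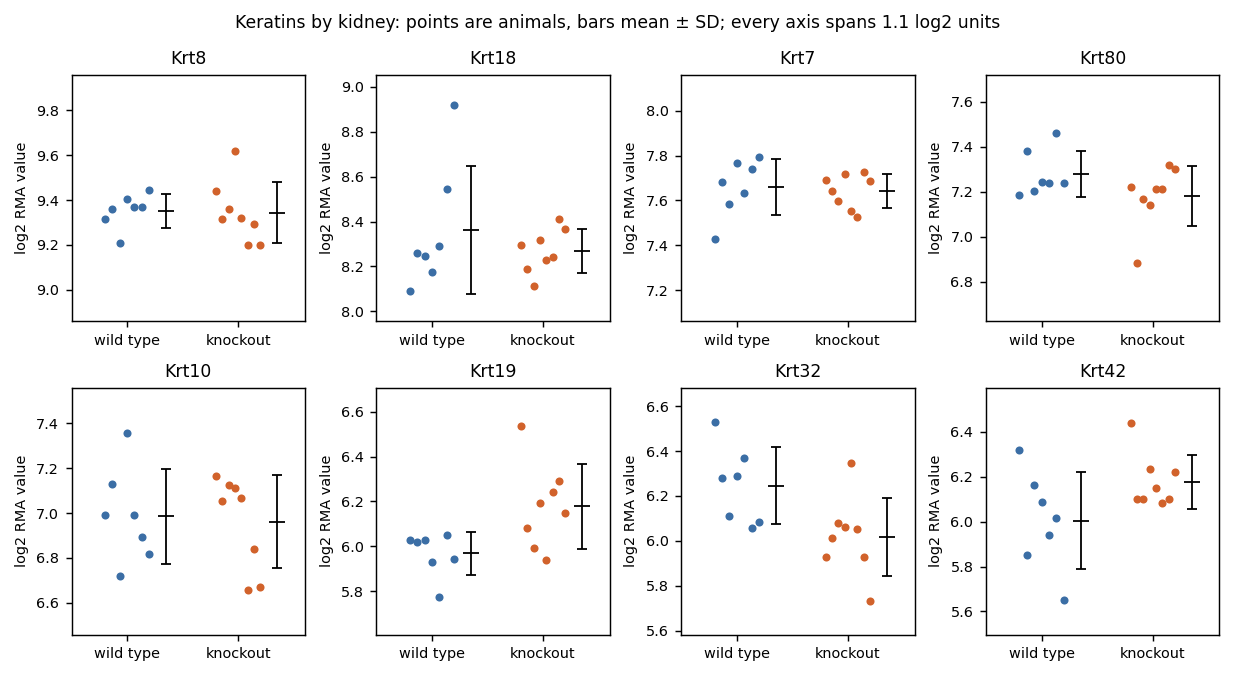
Log2 values of 8 keratins in wild-type (blue, n = 7) and knockout (orange, n = 8) kidneys, with points in order of replicate number and bars at mean ± SD; each vertical axis spans the same length. Krt8, Krt7 and Krt10 overlap between genotypes, Krt18 has its 2 highest kidneys in wild type, and Krt19 and Krt32 lean in opposite directions with overlap.

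Krt20 and the basal keratins Krt14 and Krt15 did not stay above the 95th percentile level. Krt20, the type I keratin of umbrella cells and gut epithelium, ranged from 5.04 to 5.32 in wild type (median 5.17) and from 5.0005 to 5.42 in knockout (median 5.201). It exceeded the 95th percentile level in 3 of 15 kidneys, and its difference was 0.02 (95% interval -0.12 to 0.16). The basal keratin Krt14 ranged from 4.61 to 5.17 in wild type (median 4.91) and from 4.36 to 5.16 in knockout (median 4.89), with a difference of -0.06 (95% interval -0.28 to 0.16). Krt15, also basal, ranged from 4.64 to 5.17 (median 4.80) and from 4.61 to 5.205 (median 4.84), with a difference of 0.0041 (95% interval -0.20 to 0.20). Neither Krt14 nor Krt15 rose above the 95th percentile level in any kidney. Krt5, also basal, has no probe set of its own and could not be read this way.

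Of the other keratins that stayed above the 95th percentile level, none passed the test. Krt40, a hair keratin, ranged from 5.49 to 6.02 in wild type (median 5.83) and from 5.78 to 6.35 in knockout (median 5.95), a difference of 0.18 (SE 0.09, limma adjusted p = 0.937). Krt42 ranged from 5.65 to 6.32 (median 6.02) and from 6.09 to 6.44 (median 6.12), a difference of 0.17 (SE 0.09, limma adjusted p = 0.920). All 8 knockout kidneys were above the wild-type mean of Krt42, and 3 of the wild-type kidneys lay within the knockout range. The hair keratin Krt35 ranged from 5.39 to 5.96 (median 5.74) and from 5.36 to 5.94 (median 5.54), a difference of -0.11. Krt33b, also of hair, ranged from 5.74 to 6.22 (median 5.95) and from 5.73 to 6.12 (median 5.94), a difference of -0.06. Krt81, the last of the hair keratins here, ranged from 5.98 to 6.53 (median 6.17) and from 5.95 to 6.52 (median 6.18), a difference of 0.01. Krt12, the corneal keratin, ranged from 5.41 to 5.88 (median 5.68) and from 5.53 to 5.93 (median 5.67), also a difference of 0.01. All of these ranges overlapped between genotypes. In the 5 kidneys without Y-linked transcripts the differences were larger for Krt40 (0.37, limma adjusted p = 0.621) and Krt42 (0.30, limma adjusted p = 0.693). In the 8 kidneys without liver or adrenal transcripts Krt35 differed by -0.27 and Krt33b by -0.16, while Krt40 differed by 0.086 (limma adjusted p = 0.991 for all). Without wild-type replicate 1 Krt35 differed by -0.066 and Krt33b by -0.025. Krt33b also moved without wild-type replicate 2 (-0.036), wild-type replicate 7 (-0.10) and knockout replicate 14 (-0.032). Without wild-type replicate 7 Krt42 differed by 0.12.

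Across the family, 0 of 53 keratins passed in limma at an adjusted p under 0.05, against 0.0128% of all probe sets (3 of 23521). The smallest adjusted p among keratins was 0.749. At an unadjusted p under 0.05 there were 2, Krt19 and Krt32 (3.77%), against 5.55% of all probe sets. Krt19 was the 1 higher in knockout, where 3.49% of all probe sets were, and Krt32 the 1 lower, where 2.06% were. The exact permutation test gave the same 2 genes, against 5.93% of all probe sets, and 0 after adjustment, as for all probe sets. The genotypes overlapped in every keratin, and failed to overlap in 0.123% of all probe sets. Of the 53 differences, 29 were above 0 and 24 below, with a median of 0.012. Over all probe sets 54.6% were above 0, with a median of 0.0083, and the counts above and below 0 of each group and list are to be read against that share. The median moved to -0.076 in the 8 kidneys without liver or adrenal cortex transcripts. The median of all probe sets in those 8 kidneys is not given here, and whether the shift is particular to keratins was not tested. All 53 intervals lay within 0.5 log2 units of 0, and the bound farthest from 0 was 0.47 (Krt222). Members with similar sequences, such as Krt6a and Krt6b or Krt33a and Krt33b, may share probes, so their separate readings are uncertain.

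**Figure D3:**
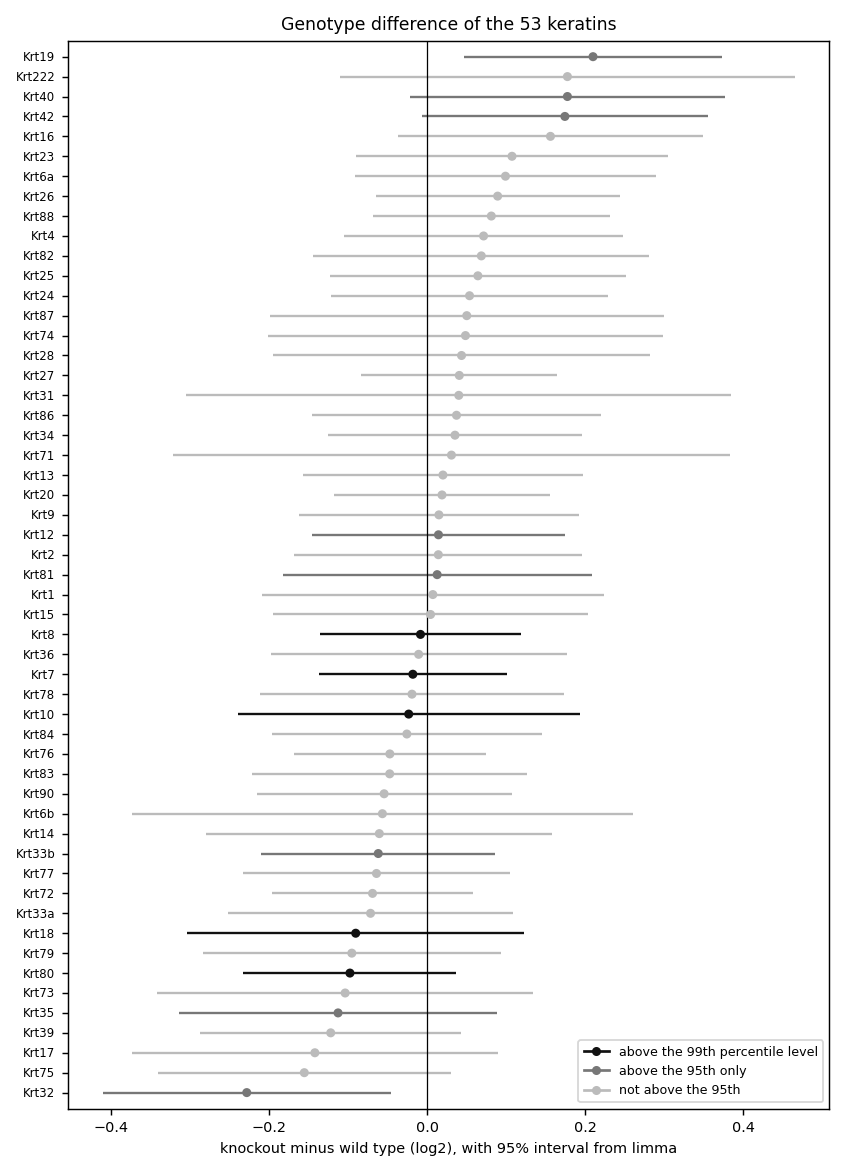
Difference between knockout and wild type (log2, horizontal axis) for each of 53 keratins (vertical axis), with the 95% interval from limma; black marks keratins above the 99th percentile level, dark grey above the 95th only and light grey the rest. Intervals of Krt19 and Krt32 miss 0 before adjustment, and none of the 53 passed after it.

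By role, the 7 simple-epithelial keratins had 3 differences above 0 and 4 below, with a median of -0.0086. The 12 suprabasal keratins, which include those of cornea and oral epithelium, had 7 above and 5 below, from -0.096 (Krt79) to 0.07 (Krt4). The 5 keratins of wounded skin, nail and hair companion layer had 2 above and 3 below, from -0.16 (Krt75) to 0.16 (Krt16). The 8 inner root sheath keratins had 6 above and 2 below, from -0.10 (Krt73) to 0.09 (Krt26). The 16 hair keratins had 8 above and 8 below, with a median of 0.00075. None of these groups had a member past the threshold. Type I keratins had a median difference of 0.02 and type II of -0.018. The 37 keratins without values of their own above had differences from -0.16 to 0.18.

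The genes that anchor or accompany keratins were read from the same fit, and 0 of them passed in either direction. Of 18 keratin linkers, which tie filaments to desmosomes, hemidesmosomes and other cytoskeleton, 13 were above 0 and 5 below, with a median of 0.04 and 0 at an unadjusted p under 0.05. The smallest p belonged to the plakin genes Dst (0.10, limma adjusted p = 0.920) and Evpl (0.09, limma adjusted p = 0.950, and 0.059 without wild-type replicate 2). Of 17 other intermediate filament genes, 2 were higher and 1 lower at an unadjusted p under 0.05, where 3.49% and 2.06% of all probe sets were. These were the neurofilament genes Nefl (0.26, limma adjusted p = 0.666), Nefh (0.16, limma adjusted p = 0.826) and Nefm (-0.25, limma adjusted p = 0.894), the last named after its values were seen. Without liver or adrenal kidneys Nefh differed by 0.078, and in kidneys without Y-linked transcripts by 0.29. Nefl, Nefm, Ina and Bfsp1 of that list stayed below the 95th percentile level in all kidneys. Of 18 keratin regulators, 9 were above 0 and 9 below, and 0 reached an unadjusted p under 0.05. The splicing regulator Esrp2 (0.11, limma adjusted p = 0.950) and the family member Grhl3 (0.13, limma adjusted p = 0.973, and 0.06 without knockout replicate 8) had the smallest p. Without liver or adrenal kidneys Esrp2 differed by 0.038 and Grhl3 by 0.25. Of 18 skin barrier genes, 11 were above 0 and 7 below, and 8, Dsg1b among them, stayed below the background level in all kidneys. Dsg1b (0.24, limma adjusted p = 0.894), a desmosomal cadherin, was the 1 gene at an unadjusted p under 0.05, and the crosslinking enzyme gene Tgm1 differed by 0.17 (limma adjusted p = 0.973), 0.085 without wild-type replicate 5 and 0.28 in the 5 kidneys without Y-linked transcripts.

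Kidney samples can hold renal pelvis, whose urothelium is rich in Krt5, Krt7, Krt18, Krt19 and Krt20, so a list of 12 urothelial genes without keratins was read beside them. Its mean ranged from 6.57 to 6.98 in wild-type and from 6.48 to 6.91 in knockout kidneys. Of its 12 genes, 8 were lower and 4 higher in knockout, 0 passed, and 1, Gsdmc, stayed below background in all kidneys. Psca (-0.34, limma adjusted p = 0.823) and the uroplakin gene Upk1a (-0.34, limma adjusted p = 0.889) were lower at an unadjusted p under 0.05, 2 of 12 genes against 2.06% of all probe sets. Both values moved with the samples used: in the 8 kidneys without liver or adrenal transcripts Psca differed by -0.21 and Upk1a by -0.084, and in the 5 without Y-linked transcripts by -0.72 and -0.78, with 0 past the threshold. With the urothelium mean as a covariate, Krt19 differed by 0.26 and Krt32 by -0.28, and neither passed (limma adjusted p = 0.617 and 0.674). In bulk tissue, fewer cells of a type and less RNA per cell cannot be told apart.

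Keratins were then compared with each other and with the urothelium mean over the 15 kidneys. None of 11 relations passed after adjustment over them. Krt8 and Krt18 had a Pearson r of 0.23 (permutation p = 0.357, adjusted p = 0.497; Spearman rho 0.23, permutation p = 0.424), and Krt7 and Krt8 an r of 0.48 (permutation p = 0.0603, adjusted p = 0.166; rho 0.57, permutation p = 0.0299). Without the 2 kidneys farthest from the median of the first gene these were 0.38 and 0.44. With the urothelium mean, Krt18 had an r of 0.65 (permutation p = 0.0126, adjusted p = 0.139; rho 0.48, permutation p = 0.0723). It rested on wild-type replicates 6 and 7, without which r was 0.11. Krt7 had an r of 0.51 (permutation p = 0.0425, adjusted p = 0.161; rho 0.63, permutation p = 0.0156), and 0.27 without the same 2 kidneys. Krt20 had an r of 0.53 (permutation p = 0.0438, adjusted p = 0.161; rho 0.46, permutation p = 0.0890), and 0.68 without them. Krt19 had an r of 0.26 (permutation p = 0.362, adjusted p = 0.497; rho 0.24, permutation p = 0.389), 0.58 without them and 0.55 with the genotypes centred (permutation p = 0.0395, adjusted p = 0.114). With knockout replicate 8 left out besides wild-type replicates 6 and 7, r was 0.20 for Krt19 and 0.48 for Krt20. In the other 5 relations, r ranged from -0.018 (Krt18 with Krt19) to 0.37 (Krt15 with the urothelium mean).

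**Figure D4:**
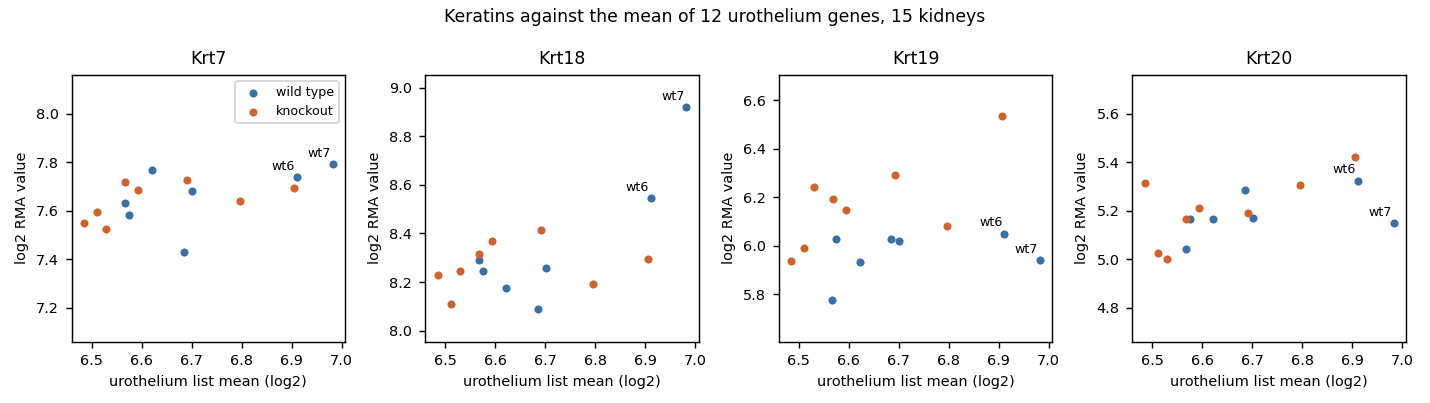
Log2 values of Krt7, Krt18, Krt19 and Krt20 (vertical axes) against the mean of 12 urothelial genes without keratins (horizontal axis, log2) in wild-type (blue) and knockout (orange) kidneys. Wild-type replicates 6 and 7 (wt6, wt7) are the highest for Krt18, at 8.55 and 8.92, and knockout replicate 8 is the highest for Krt19 and Krt20.

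As checks on the series, the labels and tissue were read from marker genes. Grhl1 ranged from 4.96 to 5.25 in wild-type and from 4.40 to 4.92 in knockout kidneys, a difference of -0.38 (SE 0.07, limma adjusted p = 0.113). The 2 ranges of Grhl1 did not overlap, with an unadjusted limma p of 5.28e-05 and an exact permutation p of 0.000311. Its probe set was below the 95th percentile level in both groups, and whether it lies in the deleted part of the gene, which decides what it checks, is not stated in those sources. Lists for proximal tubule (6 genes), thick ascending limb (5), collecting duct (11) and podocyte (4) had 0 members past the threshold. They also had 0 members below the background level in all kidneys. By the rule used for keratins, the collecting duct gene Elf5 would not count as above background, with a lowest kidney of 5.28. Tubular injury genes had 5 of 8 above 0 and 0 past the threshold. Liver transcripts were raised in 2 wild-type and 1 knockout kidney. Adrenal cortex transcripts were raised in 2 wild-type and 4 knockout kidneys, with list means from 4.90 to 8.14 in wild type and from 5.10 to 9.15 in knockout. Of the 12 liver genes 11 were below 0, and of the 9 adrenal genes measured all were above 0, with 0 past the threshold in either list. Y-linked transcripts were present in 5 of 7 wild-type and 5 of 8 knockout kidneys.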

How the data were processed

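The authors deposited log2 values, 1 per probe set and array, computed by RMA (robust multi-array averaging) per the submitters' processing notes. RMA subtracts background and brings the arrays to 1 distribution, so a shift of most transcripts would be removed and dim probe sets are compressed. Software, version and genome build of the array were not stated there. No scanner files were analysed here, so detection was read against olfactory receptor probe sets. Array medians lay between 5.51 and 5.59, correlations of array pairs between 0.976 and 0.991, and no 2 arrays were identical. The number of arrays limits the precision.

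All 23521 probe sets with 1 gene symbol were fitted with limma 3.58.1 (lmFit, eBayes without trend, no covariate) in R 4.3.3, on 15 arrays. Tests were two-sided, with Benjamini-Hochberg adjustment over all of them and a threshold of 0.05. Each gene was also given an exact permutation p over the samples, whose smallest value is 0.000155. Correlations used 100000 resamples (SciPy 1.17.1). The fit was tested on simulated data. Alternatives changed the moderation, filter, normalization, covariates, samples, probe set and test. Kidneys whose liver or adrenal list mean lay over 1 log2 unit above the median of all kidneys were taken to hold those transcripts.

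The keratins and gene lists were chosen with earlier results of these data known. Single values are given for the simple and basal keratins, keratins above background and those at an unadjusted p under 0.05. From the lists of linkers, other filaments, regulators, skin barrier and urothelium, the 2 genes with the smallest p are named, and the other lists are given as counts. Relations planned for Krt5 (3) were not computed, since it has no probe set of its own. Promoter windows are RefSeq's.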

Additional observations from a re-analysis of the deposited data

Results flagged for a closer look

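In 32 groups of 7 or 8 kidneys (16 keratins in both genotypes), 3 held a kidney far from the others by Dixon's test, which flags about 1 in 20 groups by chance. Knockout replicate 14 read 5.93 for Krt12, with the next kidney at 5.70. Knockout replicate 8 read 6.44 for Krt42, with the next at 6.24. Knockout replicate 9 read 6.88 for Krt80, with the next above it at 7.14. These 3 kidneys differ from each other, and the causes were not tested.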

How the results depend on the processing

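No paired analysis was made, because the labels name no pairs of kidneys. The replicate numbers run on from wild type to knockout and say nothing about pairing. Under all 28 alternatives, 0 keratins passed, with smallest adjusted p from 0.377 (Y-linked mean as a covariate) to 0.9999. The number at an unadjusted p under 0.05, 2 in the report, ranged from 2 to 5 leaving out 1 kidney. It was 4 with the Y-linked, urothelium or liver mean as a covariate and 4 within the 10 kidneys with Y-linked transcripts. It was 5 within those without, 6 without kidneys holding liver or adrenal transcripts and 0 among the 6 keratins above the median of all probe sets. The shares of all probe sets in these settings are not given here, so the counts do not show a change particular to keratins. The median difference was -0.076 without kidneys holding liver or adrenal transcripts, likewise without the median of all probe sets beside it. Keratins above background numbered 5 at the 99th percentile and 5 at the median of all probe sets. Krt19, Krt32, Krt35, Krt40, Krt42 and Krt80 kept their sign in every alternative that gave a value.

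Differences near 0 changed sign. With the urothelium mean as a covariate Krt7 was 0.0098 and Krt8 0.0084, and with the adrenal mean 0.0019 and 0.0016. Krt81 was -0.0032 with the Y-linked mean. Without kidneys holding liver or adrenal transcripts, Krt7 was 0.044 and Krt18 0.041. Within kidneys with Y-linked transcripts, Krt7 was 0.021, Krt8 0.080, Krt10 0.067, Krt12 -0.026, Krt14 0.017, Krt18 0.016 and Krt81 -0.076. Within those without, Krt15 was -0.13, Krt20 -0.10, Krt33b 0.052 and Evpl -0.0079. Leaving out 1 kidney gave ranges of -0.057 to 0.0035 for Krt7, -0.048 to 0.012 for Krt8, -0.068 to 0.039 for Krt10, -0.026 to 0.052 for Krt12, -0.11 to 0.0094 for Krt14, -0.044 to 0.056 for Krt15, -0.14 to 0.0026 for Krt18, -0.012 to 0.048 for Krt20 and -0.032 to 0.067 for Krt81. The cause was not tested.

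The r of Krt8 and Krt18 was -0.11 without kidneys holding liver or adrenal transcripts. That of Krt18 and Krt19 was 0.22 there, 0.15 with genotypes centred and 0.28 without wild-type replicate 7. That of Krt20 and the urothelium mean was 0.87 there (adjusted p = 0.0164, permutation test, 8 kidneys) and 0.71 without wild-type replicate 7 (adjusted p = 0.0488), a setting chosen after seeing the data. By rank neither passed, with rho 0.86 (permutation test, adjusted p = 0.118) and 0.64 (permutation test, adjusted p = 0.180). With wild-type replicate 6 and knockout replicate 8 also left out, r was 0.80 and 0.48 in these 2 settings. The filter on dim probe sets left only 6 keratins with a value. Dim probe sets limit what could be seen for most of the family.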

Other observations

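A probe set that the annotation shares between Krt5, the basal type II keratin, and Krt6a ranged from 6.02 to 6.55 in wild-type kidneys (median 6.34) and from 6.28 to 6.83 in knockout kidneys (median 6.47). The difference was 0.19, with an exact permutation p of 0.0845. The probe set of Krt6a alone read 3.78 on average over all kidneys. A second shared probe set, of Krt6b and the predicted gene Gm5478, ranged from 4.47 to 5.10 and from 4.58 to 5.06, with a difference of 0.07 and an exact permutation p of 0.498. Neither was counted among the 53 keratins.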
